A study of Mus musculus with 3 samples.

Results

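Leukocytes leave the blood in steps, each carried by its own adhesion molecules. On the vessel wall the selectins E-selectin (Sele) and P-selectin (Selp) catch rolling leukocytes, the immunoglobulin-type ligands Vcam1, Icam1 and Icam2 hold them firmly, and the atypical chemokine receptor Ackr1 binds and transports chemokines across venules. On the leukocyte, the integrin alpha4 (Itga4) pairs with beta1 or beta7 and binds Vcam1, while alphaL (Itgal) pairs with beta2 (Itgb2) to form LFA-1, which binds Icam1 and Icam2. Postcapillary venules are known as the main site of this traffic, and several of these molecules are inducible by inflammatory signals.

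These 9 genes, chosen by symbol from the 28692 genes measured, were followed across the cells of the stromal vascular fraction, the non-adipocyte cells freed from fat by digestion, of the inguinal depot of C57BL/6 mice. The cold library came from mice exposed to 4 C for 3 days. The CL library came from mice given CL 316,243, an agonist of the beta3-adrenergic receptor, intraperitoneally at 1 mg/kg for 3 days. The saline library was the control. Each group was 1 single-cell library, and how many animals it came from, their sex and their age are not stated in the labels used, so no difference below has a replicate check and no p-value is given.

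The 3 libraries held 5050, 7943 and 7674 barcodes in cold, CL and saline. Barcodes with at least 500 detected genes and at most 15% mitochondrial transcripts, less called doublets, left 3858, 6650 and 6184 cells, with median depths of 3623, 3837 and 3209.5 transcript molecules (UMIs) per cell. Doublet calling removed 4 cold cells (0.104%), against 55 CL cells and 87 saline cells, too few in cold to count as doublet removal. Pairs of libraries shared 4 to 9 of the barcodes kept. Cells were clustered without the 9 genes, and clusters were named from marker genes as "X-like" classes. Levels are counts per 1000000 UMIs summed over a class in a library (CPM), with 95% exact Poisson intervals that cover counting error only. Ratios are log2 with 95% exact conditional intervals. A gene was counted as different when it had at least 10 UMIs in the pair, differed at least 2-fold and had an interval that left out 0. Levels of different genes are not compared with each other, since these counts are not per length.

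On build mm10, Vcam1 lies at chr3:116109949-116129688 on the minus strand, Icam1 at chr9:21015985-21028817 on the plus strand and Icam2 at chr11:106377656-106388075 on the minus strand. Sele lies at chr1:164048234-164057677 and Selp at chr1:164115264-164150026, both on the plus strand, and Ackr1 at chr1:173331886-173333750 on the minus strand. The integrin genes are Itga4 at chr2:79255426-79333123, Itgal at chr7:127296260-127335138 and Itgb2 at chr10:77530252-77565708, all on the plus strand.

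The endothelial-like class held 262 cold, 273 CL and 365 saline cells, and all 8 endothelial markers were detected in every library. It was split by sub-clustering. Capillary-like cells (Gpihbp1, Car4) were 67.6% of the class in cold and 75.5% in CL, against 47.4% in saline. Venous-like cells (Vwf, Lrg1) numbered 13 in cold and 5 in CL, against 29 in saline, which is 4.96% and 1.83% of the class, against 7.95%. The 95% exact binomial intervals of these venous shares were 2.67 to 8.34%, 0.597 to 4.22% and 5.39 to 11.2%. Arterial-like cells numbered 16, 22 and 53, and lymphatic-like cells 12, 2 and 43. The lymphatic-like cells were led by Nts, Mmrn1 and Marco, with Prox1, Lyve1 and Glycam1 also among their leading genes. Their lymphatic markers summed to 2770 CPM in cold, 4647 CPM in CL and 3520 CPM in saline, beside venous markers at 2663, 1301 and 2069 CPM. Whether venous or other cells are mixed into this sub-cluster was not tested. The other 3 sub-clusters stayed unnamed. One of them, with 16, 12 and 26 cells, was led by Apod, Cxcl13 and the stromal genes Dcn and Col1a2, and 1 marker of the subtype nearest to it was detected. Its ASPC markers summed to 10259 CPM in cold, 37545 CPM in CL and 20071 CPM in saline, beside endothelial markers at 3693, 1411 and 1229 CPM and B cell markers at 657, 0 and 449 CPM. The part of other cells' RNA in its values was not tested.

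The selectins were read in few cells. Sele, which slows rolling leukocytes and is made by activated endothelium, had 12 UMIs in the cold library, 11 in CL and 19 in saline. Endothelial-like cells held 12, 6 and 18 of these, all of them in the venous-like and lymphatic-like cells. The 4 Sele UMIs in CL adipose stem and progenitor-like (ASPC-like) cells sat in 1 cell. In lymphatic-like cells Sele had 7 UMIs in cold (149 CPM) and 3 in CL, against 9 in saline (38.1 CPM). It was higher in cold than in saline there, with a ratio of 1.97 (0.31 to 3.56), where 5.31% of genes differed, but 6 of its 7 cold UMIs sat in 1 cell. Capillary-like cells had none in any library, which allows at most 4.86 CPM in cold, 6.32 CPM in CL and 8.42 CPM in saline.

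Selp, stored in endothelial granules and moved to the surface on stimulation, was read mostly in the venous-like cells. There it stood at 867 CPM in cold (95% interval 653 to 1129, 55 UMIs), 1028 CPM in CL (547 to 1757, 13 UMIs in 5 cells) and 1178 CPM in saline (975 to 1411, 118 UMIs). The 3 venous intervals overlap, and the venous log2 ratio was -0.44 (-0.93 to 0.03) for cold over saline and -0.20 (-1.15 to 0.63) for CL over saline. Capillary-like cells had 3, 0 and 0 Selp UMIs in the same libraries. Lymphatic-like cells had 0 in cold and 3 in CL, against 26 in saline (110 CPM). Over the whole endothelial-like class, Selp was 55.9 CPM in cold and 26.6 CPM in CL, against 121 CPM in saline. The class ratio was -1.12 (-1.58 to -0.67) for cold over saline and -2.19 (-2.99 to -1.48) for CL over saline, so the class level fell in both while the level inside venous-like cells did not differ beyond counting error. The cold difference was lost when barcodes with UMIs of the other compartment were left out (-0.96). Capillary-like and arterial-like cells alone held 3 and 1 Selp UMIs in cold and 0 in saline, under the UMI minimum. Their ratio of 0.17 takes the saline 0 as 3 UMIs and is not a measured difference. A single cold cell held 29 of the 55 venous UMIs. The class difference between CL and cold, -1.07 (-1.92 to -0.29), was kept in 6 of 12 alternatives and lost without the cell with the most Selp UMIs in each library.

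Sele and Selp lie near each other on chromosome 1, and both had UMIs in the venous-like cells of every library. Sele had 7, 3 and 9 UMIs in lymphatic-like cells and 5, 3 and 9 in venous-like cells, in cold, CL and saline. In saline these came from 236392 lymphatic-like and 100150 venous-like UMIs, so the lymphatic-like level was the lower one. In cold the sums were 46933 and 63416 UMIs and in CL 5380 and 12650, so the lymphatic-like level was the higher one. Selp was mostly venous. The sequence just upstream of each start is shown. The 250 bases before each RefSeq start (GRCm38.p6, plus strand) are chr1:164047984-164048233 for Sele and chr1:164115014-164115263 for Selp. Capitals mark the match to the AP-1 motif, TGANTCA.
Sele: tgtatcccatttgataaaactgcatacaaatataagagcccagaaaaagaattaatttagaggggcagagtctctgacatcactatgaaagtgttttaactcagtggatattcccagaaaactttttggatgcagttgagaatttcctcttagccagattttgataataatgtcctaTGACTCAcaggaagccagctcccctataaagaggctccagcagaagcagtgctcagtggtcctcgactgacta
Selp: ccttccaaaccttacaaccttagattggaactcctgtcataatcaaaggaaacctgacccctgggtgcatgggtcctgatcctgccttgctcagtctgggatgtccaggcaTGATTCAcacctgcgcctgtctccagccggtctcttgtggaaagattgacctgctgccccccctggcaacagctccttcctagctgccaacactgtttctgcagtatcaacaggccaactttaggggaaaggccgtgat
The match lies 73 to 67 bases before the start of Sele and 139 to 133 bases before that of Selp. Of 32851 windows of this length in the RefSeq table, 6.75% hold the motif on either strand. The ETS core GGAA and the GATA motif were searched as well and are common, in 93.4% and 53.6% of windows, and neither overlapped the AP-1 matches. The NF-kB consensus, held by 7.25% of windows, was not matched in the windows of the 5 members in the table (Sele, Selp, Icam1, Ackr1 and Itga4). A match is only a run of letters and says nothing about binding.

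Ackr1, which marks venules, had its highest levels in venous-like cells, at 174 CPM in cold (86.6 to 310.4, 11 UMIs), 316.2 CPM in CL (86.2 to 809.6, 4 UMIs) and 340 CPM in saline (235 to 474, 34 UMIs). The intervals overlap, and the cold over saline ratio was -0.97 (-2.10 to 0.05). Capillary-like cells had 0, 1 and 0 UMIs. In the whole endothelial-like class Ackr1 fell to 10.4 CPM in cold and 7.39 CPM in CL, against 32.7 CPM in saline, with ratios of -1.65 (-2.76 to -0.65) and -2.15 (-3.85 to -0.80). These rest on 11 and 5 UMIs, against 39. With doublets kept the ratios were 1.85 and 0.57, and neither counted as different. In that clustering all 47 venous-like cells joined the pericyte/smooth muscle-like class. As reported, those cells held all 11 cold, 4 of 5 CL and 34 of 39 saline Ackr1 UMIs of the class. A library at 0 UMIs is set to 3 UMIs in such ratios, so 1.85 and 0.57 are not read as a rise.

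Most Ackr1 UMIs lay outside the vessel. ASPC-like cells, the Pdgfra-positive stromal cells of fat, held 213 of 241 in cold, 554 of 573 in CL and 457 of 535 in saline. Their level was 48.8 CPM in cold, 77.5 CPM in CL and 58.9 CPM in saline, differences of under 2-fold. Ackr1 overlaps an exon of Cadm3, a neural-type adhesion gene on the same strand, so reads from the shared stretch cannot be assigned with certainty. Cadm3 was measured at 146, 208 and 162 CPM in ASPC-like cells, with 33.4, 37.3 and 36.4 Ackr1 UMIs per 100 Cadm3 UMIs. Venous-like cells had 550, 400 and 486 per 100, and Schwann-like cells, with Cadm3 at 246, 156 and 231 CPM, had 8.16, 0 and 8.11 per 100. The ratio in ASPC-like cells thus lies between the other 2 classes, and the share of their Ackr1 signal that belongs to Cadm3 was not tested. Within ASPC-like cells, cluster 13 (Timp1, Prg4) had 125 CPM in CL and 124 CPM in saline with no cold cell, cluster 2 (Pi16) had 63.6, 89.2 and 80.0 CPM, and cluster 8 (Col15a1) had 7.60, 22.2 and 13.2 CPM.

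Vcam1, the ligand of alpha4 integrins, was found in the vessel wall, in stroma and in some myeloid cells. In endothelial-like cells it fell to 46.5 CPM in cold (34.4 to 61.4, 49 UMIs) and 39.9 CPM in CL (26.3 to 58.0, 27 UMIs), against 185 CPM in saline (162 to 211, 221 UMIs). Both treated libraries lay below the saline interval. The ratio was -1.99 (-2.47 to -1.54) for cold over saline and -2.21 (-2.85 to -1.63) for CL over saline. CL over cold was -0.22 (-0.96 to 0.49), an interval that holds 0. Without the Apod- and Cxcl13-led sub-cluster the ratios over saline were -2.15 in cold and -1.82 in CL.

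Capillary-like cells had little Vcam1. Their levels were 1.62 CPM in cold (1 UMI in 177 cells), 21.1 CPM in CL (10 UMIs in 6 of 206 cells) and 5.61 CPM in saline (2 UMIs in 173 cells). CL was higher than cold there, with a ratio of 3.70 (0.89 to 9.14) that rests on 11 UMIs, and it was kept in 5 of 10 alternatives. It was lost when the cell with the most Vcam1 UMIs in each library was left out, with doublets kept, at a mitochondrial limit of 5%, with the 9 genes among the variable genes and at doubled resolution. Among all genes tested in capillary-like cells, 4.77% differed between CL and cold, and Vcam1 was the only member that did. Venous-like cells had 189 CPM in cold, 158 CPM in CL and 310 CPM in saline, with overlapping intervals.

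Arterial-like cells had 67.7 CPM in cold and 52.9 CPM in CL, against 173 CPM in saline, with ratios of -1.35 (-3.05 to -0.01) and -1.71 (-4.05 to -0.06) that rest on 5 and 3 UMIs, against 39. In arterial-like cells 6.96% of genes differed between cold and saline and 5.29% between CL and saline, and Vcam1 was the only member that differed. Lymphatic-like cells had 149 CPM in cold and 313 CPM in saline, and 11 UMIs in 1 of the 2 CL cells. The Apod- and Cxcl13-led sub-cluster had 185 CPM in cold, 28.2 CPM in CL and 536 CPM in saline, from 18, 1 and 68 UMIs, of which 15 and 27 sat in a single cold and a single saline cell. Of the 221 saline endothelial UMIs, lymphatic-like cells held 74, that sub-cluster 68, arterial-like cells 39 and venous-like cells 31.

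**Figure D1:**
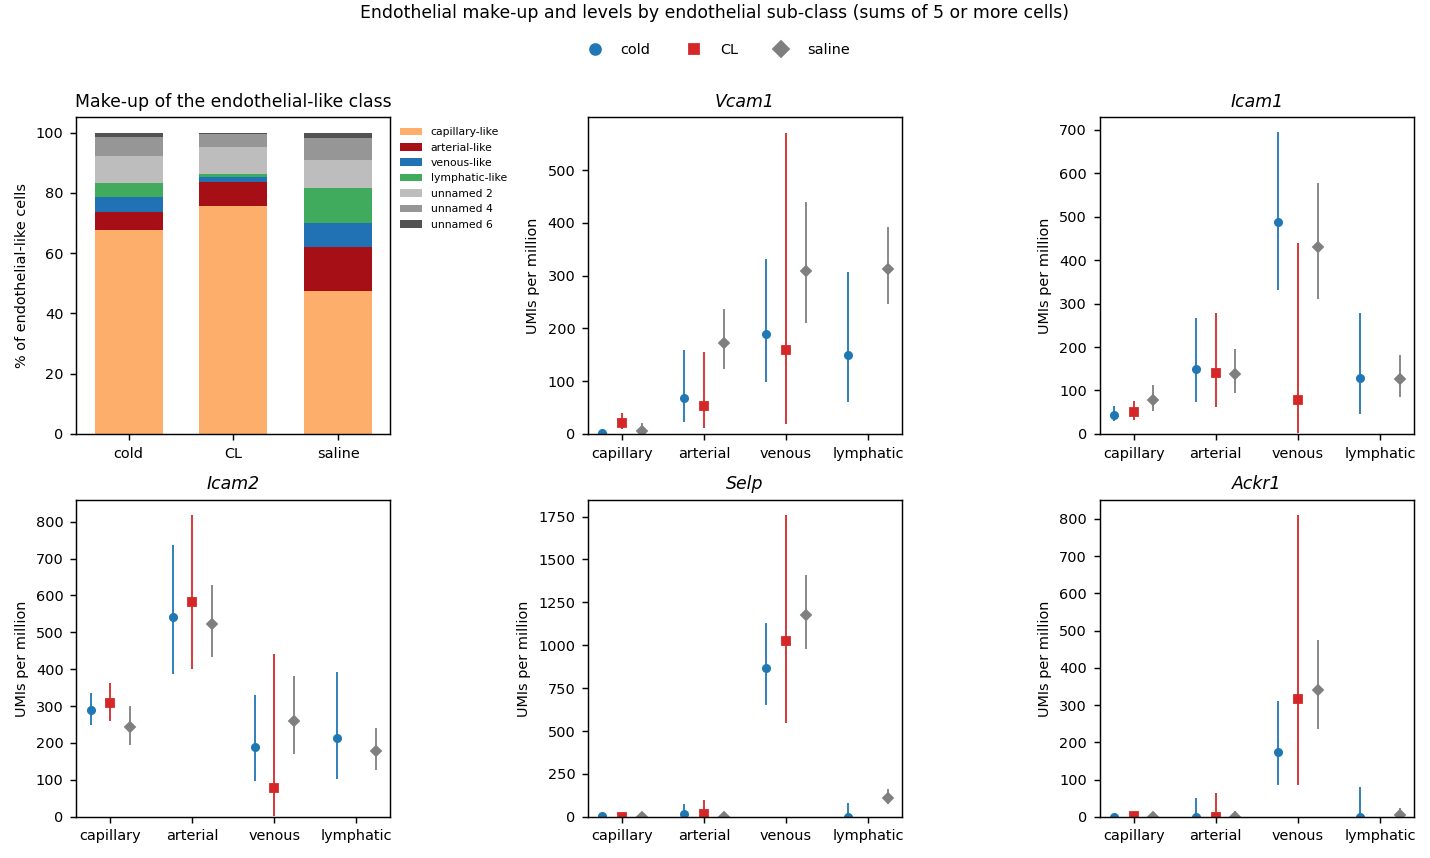
Share of endothelial-like cells in each sub-cluster (first panel, % of cells) and levels of 5 genes in the endothelial sub-classes (CPM, points with 95% Poisson intervals, sums of 5 or more cells, so the 2 lymphatic-like CL cells are not drawn). Selp and Ackr1 rest on 0 to 3 UMIs in capillary-like and arterial-like cells, and are high in venous-like cells, which are 4.96% of the class in cold and 1.83% in CL, against 7.95% in saline.

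The class level was also computed from the make-up of the class. If every sub-cluster kept its saline level and only its share of the UMIs differed, Selp would stand at 76.5 CPM in cold and 23.3 CPM in CL, beside the measured 55.9 and 26.6 CPM. Ackr1 would stand at 23.5 and 8.03 CPM, beside 10.4 and 7.39 CPM. Vcam1 would stand at 101 and 56.0 CPM, beside 46.5 and 39.9 CPM, with 185 CPM measured in saline. The measured Vcam1 level lies below these sums in both treated libraries, and Ackr1 and Selp lie below theirs in cold. In CL, Ackr1 and Selp lie close to their sums and rest on 5 and 18 measured UMIs. Counting error was not computed for any of these gaps. What set the make-up, from tissue to digestion, was not tested.

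Icam1, the inducible ligand of LFA-1, was broad. In venous-like cells it had 489 CPM in cold, 79.1 CPM in CL (1 UMI) and 429 CPM in saline, and CL was lower than cold with a ratio of -2.63 (-7.98 to -0.04). That difference was lost without the top cell of each library, which in cold held 13 of the 31 UMIs, and 4.38% of genes tested in venous-like cells differed between CL and cold. Capillary-like cells had 43.8 CPM in cold, 50.5 CPM in CL and 78.5 CPM in saline, within 2-fold of each other. Over the endothelial-like class Icam1 had 98.6 CPM in cold and 60.6 CPM in CL, against 124 CPM in saline, and fell only in CL, with a ratio of -1.03 (-1.57 to -0.53). The CL difference is at the edge of the 2-fold limit and was kept in 7 of 12 alternatives.

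Icam2, the constitutive LFA-1 ligand of resting endothelium, stayed within 2-fold in the endothelial-like class and its capillary-like and arterial-like cells. It was 290 CPM in cold, 307 CPM in CL and 244 CPM in saline in capillary-like cells, and 542, 582 and 524 CPM in arterial-like cells. The class ratios were 0.14 (-0.10 to 0.38) for cold over saline and 0.30 (0.04 to 0.56) for CL over saline. The unnamed sub-clusters together had 193 CPM in cold and 220.1 CPM in CL, against 90.8 CPM in saline. After thinning each cell to 1500 UMIs, 35.8% of capillary-like cells in cold, 38.3% in CL and 33.3% in saline had an Icam2 UMI, compared with 58.2, 39.8 and 37.0% before thinning. The same share was 0% (0 of 586), 0.286% and 0.0828% in ASPC-like cells, whose median depths were 7439.5, 6523 and 6419.5 UMIs, against 2832, 1897.5 and 1718 in capillary-like cells. The pericyte/smooth muscle-like class also carried Icam2, at 203, 160 and 149 CPM. That cluster held all 8 endothelial markers, at summed levels of 3957, 3817 and 2407 CPM, and whether its Icam2 comes from endothelial RNA was not tested.

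In the endothelial-like class as a whole, 3 of the 9 genes differed between cold and saline (Vcam1, Selp and Ackr1, all lower) beside 8.79% of all genes tested there. Between CL and saline 4 differed (the same 3 and Icam1, all lower) beside 10.2% of genes, and between CL and cold 1 differed (Selp, lower) beside 4.83%. With 7 of the 9 genes passing the UMI minimum for cold over saline, their median log2 ratio was -0.41, and with 6 passing for CL over saline it was -1.59, while the median of all genes was -0.04 in both. The cold and CL comparisons share the saline library.

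Related genes were read in the same class from lists chosen for this pathway. Of 15 endothelial junction and adhesion proteins, 14 were tested and 1 was higher and 0 lower in cold than in saline, while 0 were higher and 2 lower in CL. The higher one was Glycam1, a mucin ligand of L-selectin known from lymph node venules, at 106 CPM in cold and 0 CPM in CL, against 27.6 CPM in saline. Of its UMIs, 110 of 112 in cold and 33 of 33 in saline lay in the lymphatic-like cells. Vwf, a venous and arterial marker, fell to 76.8 CPM in CL and was 194 CPM in cold, against 225 CPM in saline. Pecam1 had 1012, 1059 and 931 CPM in cold, CL and saline.

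Of 12 NF-kB response genes, 5 were lower and 0 higher in cold than in saline, with a list median of -0.88, and 5 were lower and 0 higher in CL, with a median of -1.11. In capillary-like cells alone, 1 of 7 tested was lower and 0 higher in cold, with a median of -0.86, and 2 of 8 were lower and 1 higher in CL, with a median of 0.05. In the whole class Ccl2, which attracts monocytes, fell to 19.0 CPM in cold and 39.9 CPM in CL, against 126 CPM in saline. Of 10 dissociation and early-response genes, 5 were lower in cold and 6 in CL, and none was higher. Atf3, a stress-induced transcription factor, fell to 141 CPM in cold and 99.0 CPM in CL, against 674 CPM in saline. Among capillary-like cells alone 8 of these 10 were lower in cold and 6 in CL, where 6.72% and 6.57% of all genes tested in those cells differed from saline. The saline endothelial-like cells thus carried more early-response RNA than both treated libraries, and the part of this in the levels of Vcam1, Icam1 and Selp was not tested. Of 6 endothelial quiescence genes 1 was lower in cold and 2 in CL. Klf4, an endothelial transcription factor known to restrain inflammation, was lower in CL at 637 CPM, against 1494 CPM in saline, and its 828 CPM in cold lay within 2-fold of saline.

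The other 4 lists had 1 or 2 members each past the limit in the endothelial-like class. Of all genes tested there, 8.79% differed between cold and saline and 10.2% between CL and saline. Among selectin ligands and their glycosyltransferases, 1 of 9 tested was lower in cold and 2 of 8 in CL than in saline. Of the other leukocyte integrin chains, 2 of 8 were lower in each comparison, and of the integrin activation genes 1 of 7 was lower in each. Of 8 actin linkers of adhesion receptors, 1 was lower in each, and no gene of these 4 lists was higher. The list medians in cold and CL were -0.51 and -0.48 for selectin ligands, -0.96 and -0.60 for integrin chains, 0.30 and -0.21 for integrin activation and 0.00 and -0.09 for actin linkers.

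**Figure D2:**
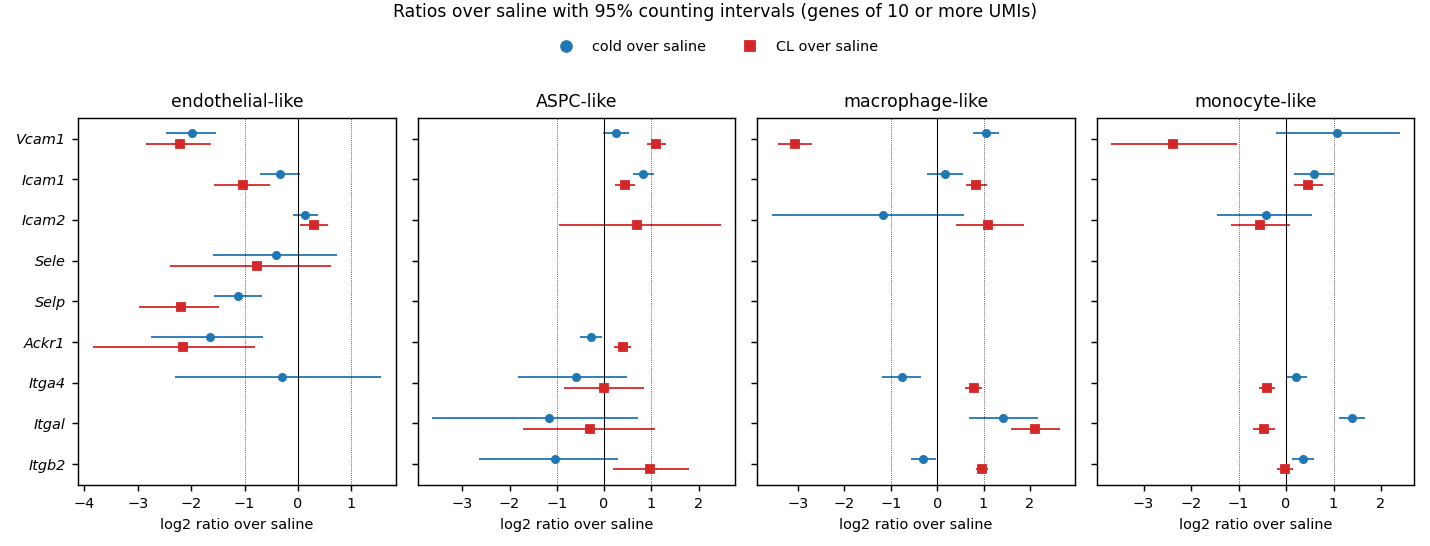
Log2 ratio over saline of each gene with at least 10 UMIs in the pair, in 4 classes, for cold (circles) and CL (squares), with 95% counting intervals and dotted lines at the 2-fold limit. Vcam1 lies below 0 in endothelial-like cells in both libraries and above 1 in ASPC-like cells in CL.

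In ASPC-like cells Vcam1 went the other way. It rose to 79.7 CPM in CL (73.3 to 86.6, 570 UMIs) and stood at 44.2 CPM in cold (38.2 to 50.9, 193 UMIs), against 37.0 CPM in saline (32.9 to 41.5, 287 UMIs). The CL interval lies above both others. The ratio was 1.11 (0.90 to 1.32) for CL over saline, 0.26 (-0.01 to 0.52) for cold over saline and 0.85 (0.61 to 1.09) for CL over cold. At a common depth of 1500 UMIs, 9.53% of CL, 5.63% of cold and 5.13% of saline ASPC-like cells had a Vcam1 UMI, and 28.4, 18.9 and 16.2% did before thinning. B cell/plasma cell-like cells, which should lack Vcam1, had 0% (0 of 137) in CL, 0.140% in cold and 0.355% in saline at the same depth, with median depths of 1581, 2510 and 1700.5 UMIs.

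The rise in CL was seen inside the stromal clusters. In cluster 8, led by collagens such as Col15a1 and holding 69.9 to 73.5% of the class's Vcam1 UMIs, the level was 114 CPM in cold and 171 CPM in CL, against 89.7 CPM in saline, with a CL over saline ratio of 0.93 (0.69 to 1.18). In cluster 14 (Gdf10) it was 43.3, 81.8 and 35.9 CPM, with a CL over saline ratio of 1.19 (0.59 to 1.82). In the Pi16 cluster 2 it was 9.69, 19.5 and 8.29 CPM, with a ratio of 1.24 (0.41 to 2.04). Cluster 13 held 404 CL and 0 cold cells, against 38 in saline, and had 27.6 CPM in CL and 20.2 CPM in saline. So every cluster had its highest Vcam1 in CL, although clusters 8 and 13 stay under 2-fold of saline and the intervals of cluster 13 overlap.

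Vcam1 was the only member of ASPC-like cells that differed between CL and saline, beside 7.85% of all genes. None differed between cold and saline, beside 3.64%, and between CL and cold only Itgb2 did, at 40 against 6 UMIs, beside 8.85%. Icam1 stood at 76.0 CPM in cold and 58.1 CPM in CL, against 42.8 CPM in saline, with a cold over saline ratio of 0.83 (0.60 to 1.05), under 2-fold. Among NF-kB response genes, Ccl2 rose to 593 CPM in CL, against 237 CPM in saline, and Il6 fell to 76.3 CPM in cold, against 185 CPM in saline. Macrophage markers in ASPC-like cells summed to 123 CPM in cold, 160 CPM in CL and 160 CPM in saline. Lyz2, a myeloid lysozyme, stood at 50.6 CPM in cold and 207 CPM in CL, against 49.5 CPM in saline, and Itgam, a myeloid integrin chain, at 0.916, 8.67 and 1.68 CPM. The part of other cells' RNA in the Itgb2 value was not tested.

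**Figure D3:**
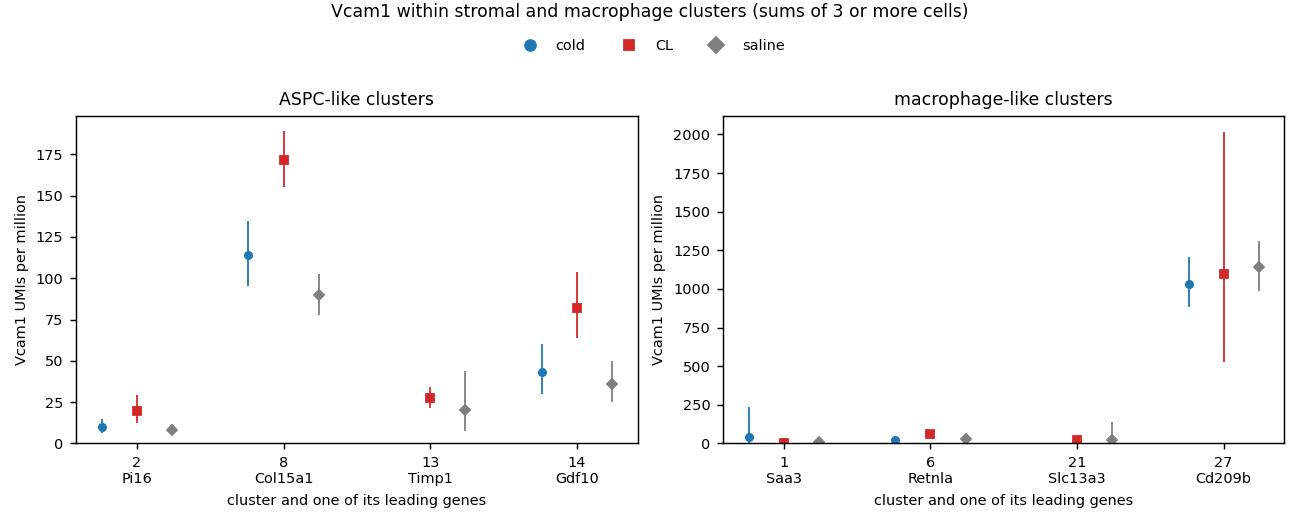
Vcam1 level (CPM, 95% Poisson intervals) in each ASPC-like and macrophage-like cluster with 3 or more cells in a library, each cluster named by its number and 1 leading gene. CL is highest in each stromal cluster, and cluster 27 stands between 1034 and 1142 CPM in all 3 libraries.

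In macrophage-like cells most Vcam1 UMIs of cold and saline, but not of CL, lay in 1 small cluster. The class had 195 CPM in cold and 11.2 CPM in CL, against 93.9 CPM in saline, with ratios of 1.05 (0.77 to 1.33) and -3.07 (-3.44 to -2.71). The cold difference was kept in 4 of 11 alternatives and was 0.099 without the cluster described next. The CL difference was lost at a mitochondrial limit of 5% (-0.70) and kept in the other 10, among them the one without that cluster. Cluster 27, led by Cd209b, Pla2g2d and Marco, numbered 26 cells in cold and 3 in CL, against 31 in saline, and held 163 of 182, 10 of 84 and 200 of 259 of the class's Vcam1 UMIs. Inside it Vcam1 was 1034 CPM in cold, 1097 CPM in CL and 1142 CPM in saline, which do not differ beyond counting error. B cell/plasma cell-like cells, the most numerous lymphocytes, numbered 1472 in cold and 236 in CL, against 1640 in saline. Any link between these counts was not tested.

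The other macrophage-like clusters had far less Vcam1. Cluster 6 (Retnla, Fcna, Lyve1) had 23.9 CPM in cold and 58.8 CPM in CL, against 29.7 CPM in saline, with a CL over saline ratio of 0.99 (0.24 to 1.70). Cluster 1 (Saa3, Cxcl2) supplied 1694 of the 1921 CL macrophage-like cells and had 5.86 CPM there. Mature dendritic cell-like cells (Ccr7, Fscn1) carried Vcam1 at 70.0 CPM in cold, 49.9 CPM in CL and 80.1 CPM in saline, all within 2-fold. Among 13 classes set in order, with capillary-like cells standing for the endothelium, macrophage-like, mature dendritic cell-like and ASPC-like cells had the highest median Vcam1 levels, and their ranges over libraries overlap. The venous-like, arterial-like and lymphatic-like cells were not in this order. The whole endothelial-like class, also left out, had 46.5 CPM in cold, 39.9 CPM in CL and 185 CPM in saline.

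**Figure D4:**
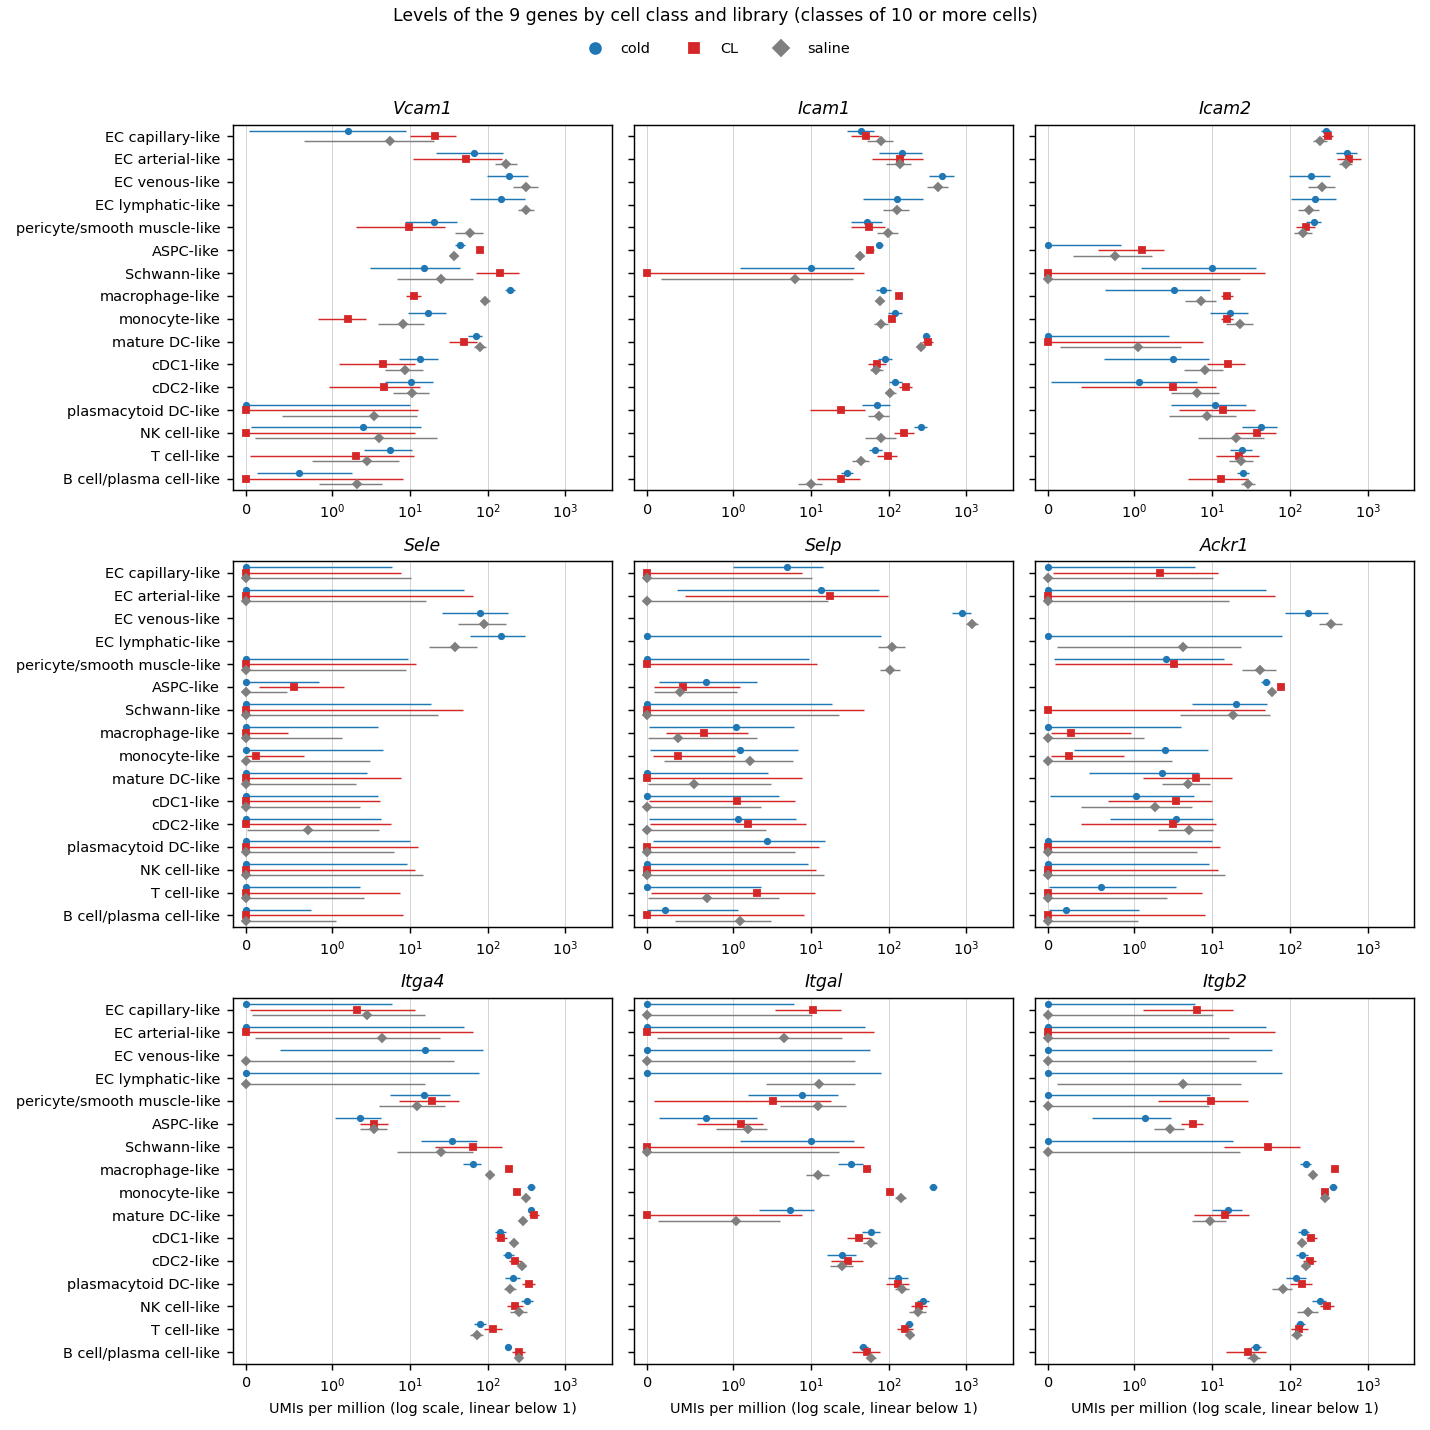
Level of each of the 9 genes (CPM on a log scale that is linear below 1, points with 95% Poisson intervals) in 16 cell classes and 3 libraries, for sums of 10 or more cells. Selp and Ackr1 stand out in the venous-like cells, Sele in venous-like and lymphatic-like cells, Icam2 in the endothelial sub-classes drawn and in pericyte/smooth muscle-like cells, and Itga4, Itgal and Itgb2 in the leukocyte classes.

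Outside the vessel Icam1 had its highest median level over libraries, among the ordered classes, in mature dendritic cell-like cells, at 306 CPM in cold, 315.8 CPM in CL and 258 CPM in saline. In NK cell-like cells it rose to 260 CPM in cold and stood at 159 CPM in CL, against 80.3 CPM in saline, with a cold over saline ratio of 1.70 (1.00 to 2.46) beside 6.8% of genes that differed. T cell-like cells had 96.7 CPM in CL and 67.3 CPM in cold, against 44.2 CPM in saline, and Icam1 was higher in CL with a ratio of 1.13 (0.56 to 1.70) beside 7.52% of genes. Myeloid genes were also highest in CL in T cell-like cells, but lay below saline in cold, where Icam1 did not. Lyz2 stood at 1529 CPM in CL and 87.1 CPM in cold, against 288 CPM in saline. Macrophage markers summed to 171 CPM in CL and 33.4 CPM in cold, against 61.0 CPM in saline. The part of myeloid RNA in the Icam1 value was not tested. In both lymphoid classes Icam1 was the only member that differed from saline.

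In B cell/plasma cell-like cells Icam1 rose to 29.0 CPM in cold and 24.1 CPM in CL (11 UMIs), against 9.99 CPM in saline. The ratios were 1.54 (0.98 to 2.13) beside 7.32% of genes and 1.27 (0.14 to 2.29) beside 3.12%, and the CL difference was lost without the top cell of each library. At a mitochondrial limit of 5% the cold ratio turned to -1.53, and with at least 1000 genes per barcode the CL ratio turned to -0.086. Within the largest B cluster the levels were 23.8, 35.4 and 9.82 CPM. Plasmacytoid dendritic cell-like cells showed the opposite sign, with 24.2 CPM in CL and 70.0 CPM in cold, against 75.3 CPM in saline, and 6.82% of genes there differed between CL and saline and 5.02% between CL and cold. Macrophage-like cells had 85.6 CPM in cold and 137 CPM in CL, against 76.1 CPM in saline, all within 2-fold.

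On the leukocyte side, Itga4 was found in nearly all immune classes. Mature dendritic cell-like cells had 361 CPM in cold, 397 CPM in CL and 286 CPM in saline, and monocyte-like cells 363, 236 and 313 CPM. NK cell-like cells had 325, 229 and 253 CPM, and these 3 classes overlap in range. T cell-like cells stood lower, at 80.9, 119 and 72.9 CPM, and endothelial-like cells at 4.74, 2.95 and 5.86 CPM. Thinned to 1500 UMIs, 40.1% of cold, 42.1% of CL and 33.9% of saline mature dendritic cell-like cells had an Itga4 UMI, against 73.7, 69.5 and 62.5% unthinned. In ASPC-like cells, at the depths given above, the thinned shares were 0.512, 0.381 and 0.745%.

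The beta partners of alpha4 were read in the same cells. Itgb1 stood at 415, 453 and 377 CPM in mature dendritic cell-like cells in cold, CL and saline, where Itgb7 had 12.9, 6.23 and 7.68 CPM. T cell-like cells had Itgb7 at 300, 322 and 231 CPM and Itgb1 at 281, 314 and 227 CPM. Itgb7 was also read in ASPC-like cells, at 64.1 CPM in cold and 12.7 CPM in CL, against 37.8 CPM in saline, and the CL over saline ratio was -1.57 (-1.93 to -1.23). Madcam1, the mucosal ligand of alpha4 beta7, had 5, 1 and 3 UMIs in endothelial-like cells.

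Itgal and Itgb2, the chains of LFA-1, were read side by side. NK cell-like cells had Itgal at 278 CPM in cold, 248 CPM in CL and 237 CPM in saline, above T cell-like cells, at 180, 163 and 188 CPM, with no overlap between these ranges. Itgb2 in the same classes was 240, 302 and 173 CPM and 137, 133 and 122 CPM. Mature dendritic cell-like cells had almost none of either chain, with Itgal at 5.32, 0 and 1.10 CPM and Itgb2 at 16.0, 14.5 and 9.32 CPM, while conventional dendritic classes had Itgb2 at 142 to 190 CPM. Counted at 1500 UMIs per cell, both chains were seen together in 41 of 177 cold (23.2%), 70 of 624 CL (11.2%) and 23 of 136 saline (16.9%) cells of monocyte-like cluster 3 (Chil3, Treml4). The same count was 7 of 99, 11 of 73 and 5 of 77 in NK cell-like cells and 0 in capillary-like cells of every library.

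The myeloid classes were filled by different clusters in each library. CL had 1921 macrophage-like and 2296 monocyte-like cells, against 217 and 195 in cold and 850 and 360 in saline. Itgb2 over all cells rose to 210 CPM in CL and was 71.7 CPM in cold, against 73.7 CPM in saline, and macrophage-like and monocyte-like cells held 49.9% and 39.7% of the CL Itgb2 UMIs, against 30.8% and 19.6% in saline. In macrophage-like cells Itgb2 was 161 CPM in cold and 386 CPM in CL, against 197 CPM in saline. Inside cluster 1 it was 411 CPM in CL and 384 CPM in saline, and inside cluster 6 it was 166, 158 and 115 CPM in cold, CL and saline, all under 2-fold apart.

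In macrophage-like cells, 2 members differed between cold and saline (Vcam1 and Itgal, both higher) beside 5.38% of genes. Between CL and saline 3 differed (Vcam1 lower, Icam2 and Itgal higher) beside 15.1%, and between CL and cold 4 differed (Vcam1 lower, Icam2, Itga4 and Itgb2 higher) beside 20.6%. Itgal was 33.2 CPM in cold and 53.2 CPM in CL, against 12.3 CPM in saline. Of the 31 cold UMIs 27 lay in cluster 27, where Itgal was 171 CPM in cold and 28.5 CPM in saline, and without that cluster the cold ratio turned to -1.12, and at a mitochondrial limit of 5% to -1.28. Itgal in cluster 1 had 54.9 CPM in CL and 27.8 CPM in saline, a ratio of 0.98 (0.36 to 1.67). Icam2 in the class stood at 3.21 CPM in cold and 15.6 CPM in CL, against 7.25 CPM in saline. Inside cluster 1 Icam2 was 17.1 CPM in CL and 16.4 CPM in saline, with a ratio of 0.06 (-0.77 to 1.01). The class difference of Icam2 was kept in 6 of 11 alternatives for CL over saline, down to 0.16, and in 9 of 11 for CL over cold, where it turned to -0.20 with the 9 genes among the variable genes.

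Monocyte-like cells had Itgal at 370 CPM in cold and 103 CPM in CL, against 142 CPM in saline. Itgal was the 1 member that differed between cold and saline, beside 6.88% of genes, with a ratio of 1.38 (1.11 to 1.66), which was lost with at least 1000 genes per barcode. Vcam1 in monocyte-like cells was 1.58 CPM in CL (13 UMIs) and 17.2 CPM in cold (14 UMIs), against 8.20 CPM in saline (10 UMIs). It was the 1 member that differed between CL and saline, beside 7.75%, lower with a ratio of -2.38 (-3.68 to -1.03), which was kept in 6 of 10 alternatives and turned to 0.60 at a common doublet score limit of 0.2. Between CL and cold Itgal and Vcam1 differed, both lower, beside 11.5%, and Itgal turned to 0.39 with at least 1000 genes per barcode. Cluster 3 made up 91.8% of the monocyte-like cells in cold and 29.4% in CL, against 40.0% in saline. Within cluster 3 Itgal was 419 CPM in cold, 246 CPM in CL and 330 CPM in saline, with a cold over saline ratio of 0.34 (0.05 to 0.64), under 2-fold. Interferon-response cells of cluster 4 (Rsad2, Ifit2), 956 of them in CL, had 62.9 CPM in CL and 23.7 CPM in saline (3 UMIs).

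**Figure D5:**
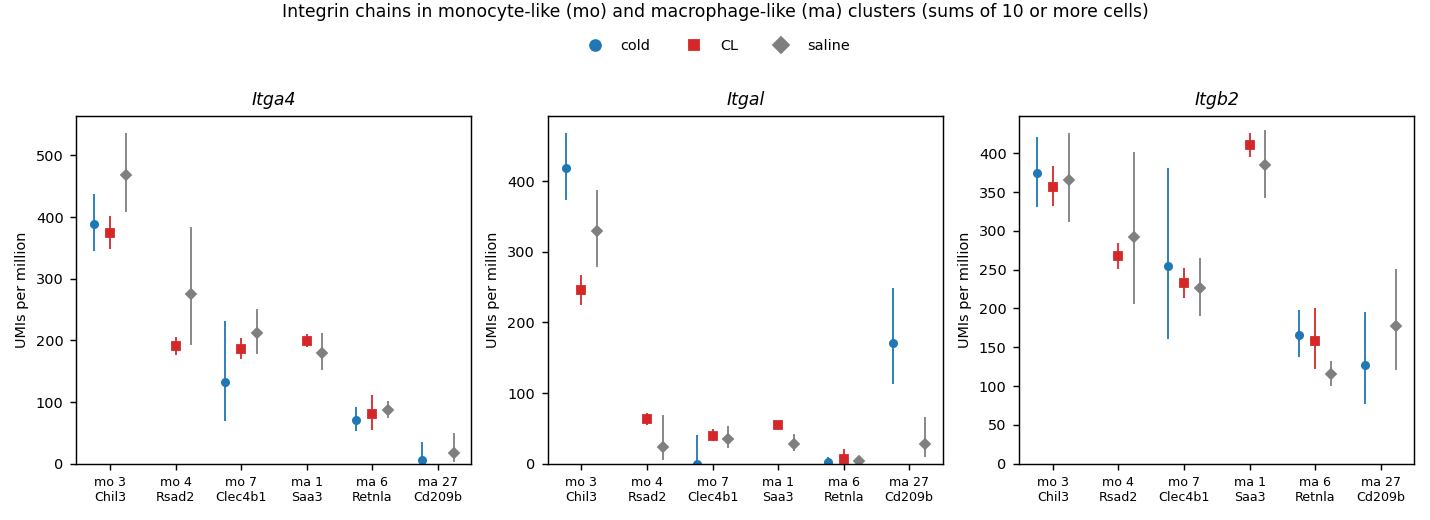
Level of the 3 integrin chains (CPM, 95% Poisson intervals) in monocyte-like (mo) and macrophage-like (ma) clusters with 10 or more cells in a library. Itgal is highest in cluster 3 in every library, at 246 to 419 CPM, while Itgb2 stays above 100 CPM in all clusters drawn.

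The remaining classes added little. Pericyte/smooth muscle-like cells had Vcam1 at 20.3 CPM in cold and 9.78 CPM in CL, against 58.7 CPM in saline. Their 43 saline Selp UMIs came from 2 of 84 cells, and 11 of 17 saline Ackr1 UMIs from 1 cell. With Vcam1, Selp and Ackr1 lower, 3 members differed there in each comparison with saline, beside 9.42% of genes in cold and 8.69% in CL. Schwann-like cells had Vcam1 at 143 CPM in CL (11 UMIs in 4 cells) and 3 UMIs in cold, against 25.0 CPM in saline (4 UMIs), beside 6.4% of genes that differed between CL and saline and 6.11% between CL and cold. Both Schwann-like differences, and those of Vcam1 and Ackr1 in pericyte/smooth muscle-like cells, were lost without the top cell of each library, and the pericyte/smooth muscle-like ones also with at least 1000 genes per barcode. In cDC1-like cells Icam2 was higher in CL than in cold, at 14 against 3 UMIs, beside 6.58% of genes. Neutrophil-like cells, 29 in cold and 47 in CL, against 3 in saline, had Itgb2 at 497 CPM in cold and 472 CPM in CL.

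Across 43 sums of class and library with at least 20 cells, each gene's log2 pattern was compared with 10360 others by Pearson correlation, given as a description since the sums share libraries and depth. Icam2 was nearest to Pecam1 (0.94), Gata2 (0.93) and She (0.92). Itgb2 was nearest to Cd53 (0.95), Itga4 to Gpr132 (0.94) and Itgal to Bin2 (0.92). Icam1 was nearest to Nfkbia (0.77), Vcam1 to Pdlim4 (0.79), and Ackr1 to Camsap3 (0.87). Sele and Selp, which are at 0 in most sums, had Fam174b and Comp among their 3 nearest.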

How the data were processed

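The deposited values are whole-number UMI counts, made by the authors with Cell Ranger 3.0.2 per the file headers and aligned to mm10 per the labels. How cells were called, and which annotation was used, is not stated in the labels or headers. The 9 genes and the lists were chosen with earlier results of these data known. Analysis used Python 3.11.15, scanpy 1.11.5, leidenalg 0.10.2 and scipy 1.17.1. Doublets were called with Scrublet per library, with an automatic score limit. Counts were scaled to 10000 per cell, and 2000 variable genes without the 9 genes, 30 components and 15 neighbours gave Leiden clusters at resolution 1 (0.3 for endothelial sub-clusters). Each cluster was named for the marker list with the largest average log2 fold, of at least 0.5. The sub-cluster resolution, that score and the joining of B and plasma cell markers were set after the clusters were seen. Free RNA was not subtracted. A share of 0 cells or a level of 0 allows up to 3 counts. For the fold limit, list medians and alternatives, a library at 0 was set to 3 counts. The text names all 9 genes, their 3 nearest by pattern, and up to 3 per list by distance of the ratio interval from 0; Pecam1, Itgb1, Itgb7, Madcam1 and Cadm3 were added after values were seen. Coordinates are from GENCODE for mm10, in which 28416 of 28692 gene IDs matched, and upstream sequences from RefSeq. Vcam1, Selp, Icam1 and Itga4 overlap genes on the opposite strand, and whether counting used strand was not given. The call rule was tested on simulated data. Alternatives covered doublets, filters, clustering, scaling, weighting of cells and thresholds.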

Additional observations from a re-analysis of the deposited data

Results flagged for a closer look

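With 1 library per group no outlier could be looked for. Vcam1 differed from saline in opposite directions in different classes, and the difference between classes was not tested. For CL over saline its log2 ratio was 1.11 in ASPC-like cells, but -2.21 in endothelial-like, -3.07 in macrophage-like, -2.38 in monocyte-like and -2.59 in pericyte/smooth muscle-like cells. For cold over saline it was 1.05 in macrophage-like cells, but -1.99 in endothelial-like and -1.53 in pericyte/smooth muscle-like cells. Icam1 did likewise for CL over saline, at 1.27 in B cell/plasma cell-like and 1.13 in T cell-like cells, but -1.03 in endothelial-like and -1.64 in plasmacytoid dendritic cell-like cells, again untested.

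Barcodes left out by the filters also carried the members. In those with under 500 genes, CL stood above saline for Icam1, at 98.6 CPM against 34.9 CPM, and for Itgb2, at 104 CPM against 41.3 CPM. In those over 15% mitochondrial UMIs, cold stood above saline for Vcam1 (87.7 against 15.8 CPM), Icam2 (65.8 against 15.8 CPM) and Itgb2 (85.5 against 27.6 CPM), and CL for Itgb2 (103 against 27.6 CPM). These barcodes numbered 181 in cold and 91 in CL, against 120 in saline.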

How the results depend on the processing

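No paired analysis was possible because each group has 1 library. Vcam1 in endothelial-like cells stayed lower than saline at 2-fold or more under all 12 alternatives run, from -3.02 to -1.48 in cold and -2.79 to -1.39 in CL. None of the 12 held the make-up of the class fixed. With every sub-cluster at its saline level, Vcam1 would stand at 101 CPM in cold and 56.0 CPM in CL, against 185 CPM in saline. Vcam1 in ASPC-like cells in CL kept its sign in 11 of 11 (0.93 to 1.71) and 2-fold in 9, missing it with each cell weighted alike and in cluster 8 alone. Keeping doublets turned endothelial Ackr1 to 1.85 in cold and 0.57 in CL over saline, and Selp to 0.62 in CL over cold. Leaving the 9 genes among the variable genes gave 1.80, 0.73 and 0.51, with Icam2 at -0.20 in macrophage-like and Vcam1 at 0.25 in monocyte-like cells in CL over cold. In these 2 settings 47 and 46 of the 47 venous-like cells joined the pericyte/smooth muscle-like class. None of these endothelial Ackr1 and Selp values counted as different, and a library at 0 UMIs enters such ratios as 3 UMIs. A mitochondrial limit of 5%, which kept 9 of the 47, gave -1.28 for Itgal in macrophage-like and -1.53 for Icam1 in B cell/plasma cell-like cells in cold over saline, and -0.081 for Icam2 in cDC1-like cells in CL over cold. At least 1000 genes per barcode gave 0.39 for Itgal in monocyte-like cells in CL over cold and -0.086 for Icam1 in B cell/plasma cell-like cells in CL over saline. A doublet score limit of 0.2 gave 0.60 for Vcam1 in monocyte-like cells in CL over saline, and leaving out barcodes with UMIs of the other compartment gave -0.061 for Itgal in macrophage-like cells in cold over saline. The causes of these changes were not tested.

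Of the alternatives added after the data were seen, capillary-like and arterial-like cells alone gave 0.17 for Selp in cold over saline. Saline had 0 Selp UMIs there and was set to 3 for that ratio. In these cells 1 member differed in cold, 1 in CL (646 genes) and 0 between CL and cold. Without cluster 27, Itgal in macrophage-like cells was -1.12 in cold over saline. Vcam1 there lost its difference for cold over saline and kept that for CL over saline. Counts of the 9 genes that differed, 3, 4 and 1 in endothelial-like cells (cold over saline, CL over saline, CL over cold) and 0, 1 and 1 in ASPC-like cells, moved as follows. In endothelial-like cells, CL over saline became 2 with the 9 genes among the variable genes. CL over cold became 3 with doublets kept (687 genes, against 456), 0 with the 9 genes among the variable genes, at 5% mitochondrial UMIs and with each cell weighted alike, and 2 at 1.5-fold. In ASPC-like cells, cold over saline became 3 with doublets kept and 1 at the score limit of 0.2 and at 1.5-fold. CL over saline became 2 at 5%, at 1000 genes, without mixed barcodes and at 1.5-fold, and 0 with cells weighted alike. CL over cold became 3 with doublets kept and at 1.5-fold, 2 at the score limit and at 5%, and 0 at 50 UMIs. Genes counted over the whole class were, in the same order, 906, 1013 and 456, then 453, 1007 and 1105, and became 413, 500, 145, 186, 562 and 619 at 50 UMIs and 1626, 1631, 776, 1176, 2264 and 2140 at 1.5-fold. Median-of-ratios scaling changed no call, and moved ratios by over 0.1 in 7 of 15 classes, the most in the 5 venous-like CL cells (-0.63 over cold). Without the stromal-marker-rich endothelial sub-cluster, 3, 4 and 1 members differed as before.

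Venous-like and lymphatic-like CL values rest on 5 and 2 cells, and a treatment effect cannot be told apart from a library effect with 1 library per group.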
